A study of Rattus norvegicus with 12 samples.

Results

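The immediate early genes described here are Fos, Jun, Junb, Egr1, Egr2, Nr4a1, Nr4a3, Arc, Atf3 and Ptgs2. These 10 genes were chosen by symbol, with earlier results of these data known. All probe sets that the gene table of the array pairs with these symbols were taken, which are 15 of 15923. The genes were measured at rest, in Fisher 344/BN F1 rats aged 6 months that had received no treatment. Neurons were lifted by laser out of stained frozen brain sections, from the pyramidal layers CA1 and CA3 of the hippocampus, the granule cell layer of the cerebellum (CbG) and the deeper layers of the frontal cortex (CTX). There were 12 Affymetrix RAE230A arrays, 3 per region, which the labels number as biological replicates 1 to 3. The number of animals, and which arrays came from the same animal, is not given in the sources used here, so that p-values measure the spread between these arrays. The study groups CA1 and CbG as vulnerable to oxidative stress (VUL, 6 arrays) and CA3 and CTX as resistant to it (RES, 6 arrays), and no group was exposed to such stress. No array of a stimulated animal was analysed here, so every value is a basal level.

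Immediate early genes are switched on by synaptic activity and by growth factors without the need for newly made protein. Calcium entry and the kinases it activates act on factors that are already bound at their promoters, serum response factor at the CArG box and CREB at the cAMP response element (CRE). Most of the genes encode transcription factors, while Arc acts at the synapse and Ptgs2 makes prostaglandins. In the resting brain their transcripts are commonly used to mark neurons that were active shortly before death.

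Replicate 3 of CA3 and replicate 3 of CbG, as labelled, each carried marker genes of the other region, and these 2 labels are called doubtful here. Gabra6, which cerebellar granule cells use in their GABA receptors, had a signal of 2567.6 in the former and 15.4 in the latter. The other CA3 arrays gave 5.6 and 38.6 and the other CbG arrays 3379.3 and 1282.9. Nrgn, which marks forebrain neurons, gave 49.2 in the former and 6450.7 in the latter. Grik4, part of the kainate receptors of CA3 neurons, gave 68.0 and 621.0. Over all 15866 probe sets that are not controls, the log2 signals of the former correlated with those of the other CbG arrays at r = 0.910 and 0.932 and with the other CA3 arrays at 0.850 and 0.866. Those of the latter correlated with the other CA3 arrays at 0.923 and 0.933 and with the other CbG arrays at 0.843 and 0.857. Values are therefore given as labelled, with these 2 labels exchanged, and for counts also over the 10 arrays without them. Signals are MAS5 signals on a linear scale, and differences come from a limma fit of log2 signals centred on the array median, with a mean for each region and a block for each replicate number. A difference passed at a Benjamini-Hochberg adjusted p under 0.05 over all 7535 probe sets tested and at least 1.5-fold. In captured tissue, fewer cells that carry a transcript and less of it per cell cannot be told apart.

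Of the 10 genes, 8 had at least 1 probe set that exceeded the 50th percentile of the array's signals in 8 or more of the 12 arrays, 10 probe sets in all, and these were tested. Fos 1371283_at, Jun 1374404_at, Egr2 1387306_a_at, Egr2 1398266_a_at and Atf3 1369268_at did not pass that filter. Junb passed at its limit, in 8 arrays, and Egr2 1387306_a_at was above the 50th percentile in 6, all of CA1 and CTX. A filter of this kind favors a probe set such as that of Junb, which passed mainly through the regions where it was high. Egr2 was therefore taken from a fit without the filter, and Junb is given from both fits.

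Promoter sequence of RefSeq (build GRCr8) was at hand for 5 of the 10 genes, Junb, Egr1, Egr2, Nr4a1 and Ptgs2. It is shown for the stretch from base -150 to base -31 before the annotated start, 120 bases read in the direction of the gene. Capitals mark every match to the CArG box, to the CRE core TGACG or its complement CGTCA, to the TATA box TATAAA and to the EGR site GCGGGGGCG or its complement, searched on both strands.
Junb, chr19:40080976-40081095, + strand: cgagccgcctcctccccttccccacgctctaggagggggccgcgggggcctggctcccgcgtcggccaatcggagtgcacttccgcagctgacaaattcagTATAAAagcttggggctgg
Egr1, chr18:26736928-26737047, + strand: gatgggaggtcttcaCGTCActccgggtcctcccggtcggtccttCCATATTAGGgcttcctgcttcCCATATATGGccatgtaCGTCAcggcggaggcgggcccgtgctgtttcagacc
Egr2, chr20:21054472-21054591, - strand: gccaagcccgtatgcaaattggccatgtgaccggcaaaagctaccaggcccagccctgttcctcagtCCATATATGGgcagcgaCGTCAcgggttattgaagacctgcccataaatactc
Nr4a1, chr7:134259988-134260107, + strand: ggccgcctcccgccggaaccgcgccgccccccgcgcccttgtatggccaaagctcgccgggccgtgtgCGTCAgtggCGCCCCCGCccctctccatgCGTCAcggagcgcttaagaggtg
Ptgs2, chr13:64713913-64714032, + strand: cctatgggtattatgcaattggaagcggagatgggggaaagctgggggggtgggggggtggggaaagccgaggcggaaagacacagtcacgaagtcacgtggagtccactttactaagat

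The promoters of Egr1 and Egr2 share the same CArG box, CCATATATGG, at base -83, and the same CRE core at base -66. Egr1 holds a further CArG box at base -105, CCATATTAGG. A CArG box lies in 1.637% of 33469 promoters of 300 bases (250 before the start and 50 after it), a CRE core in 21.205% and the EGR site in 2.734%. Nr4a1 holds CRE cores at bases -82 and -53 with an EGR site between them at base -73, and 2 further cores at -246 and -226, outside the stretch shown. Junb has a TATA box at base -49 (TATAAA in 14.222% of promoters, either strand) and a CRE core at base -155. The full CRE, TGACGTCA (1.829%), and the AP-1 site TGANTCA (7.329%) were found in 0 of the 5 promoters, and Ptgs2 held no match to any of the motifs. These are matches of letters in a short window, and no binding was measured. A link between these motifs and the regional levels was not tested.

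The signals of part of the members divided the regions in a way that crosses the grouping into VUL and RES. For Junb, Egr1, Egr2, Nr4a1, Nr4a3 (1369217_at) and Arc, every array of CA1 and CTX lay above every array of CA3 and CbG. These are 6 of the 15 probe sets of the members, from 6 genes, against 0.813% of all 15866 probe sets that are not controls and 1.26% of the 7535 tested. None of the 15 was lower without overlap, against 1.03% and 1.67%. Because the 2 doubtful arrays carry the labels CA3 and CbG, exchanging them moves neither to the other side of this comparison, so its size is the same in both arrangements and only its error differs. It is also the difference between the 2 regional contrasts, CA1 minus CA3 and CbG minus CTX, which the design allows to be tested.

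**Figure D1:**
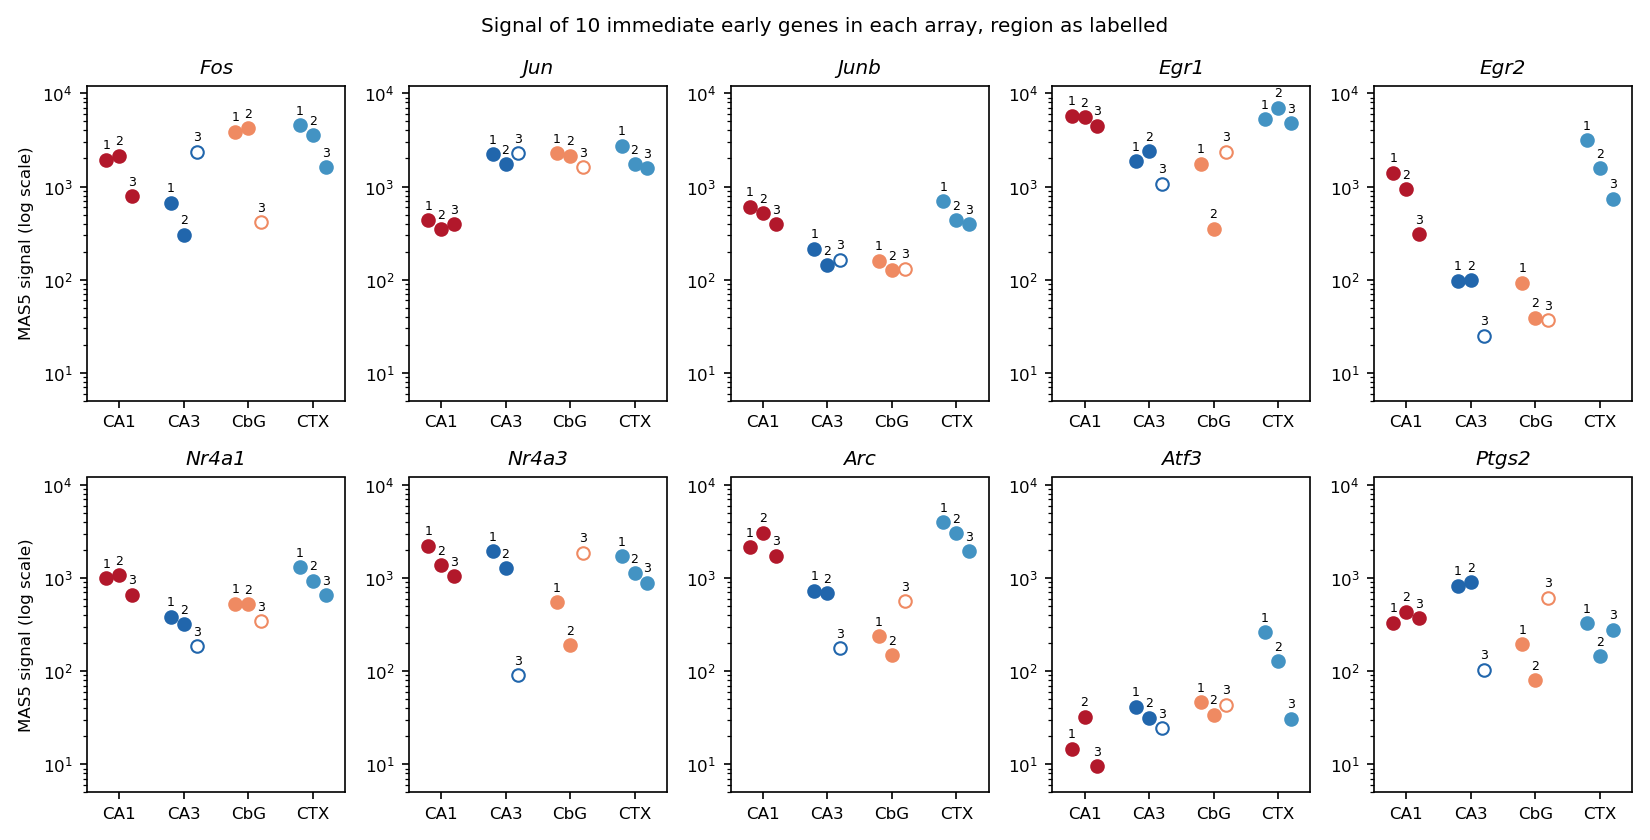
MAS5 signal (log axis) of 1 probe set of each gene in the 12 arrays by region as labelled, with the replicate number above each point; open circles mark both arrays of doubtful label. Junb, Egr1, Egr2, Nr4a1 and Arc are higher in all CA1 and CTX arrays than in any CA3 or CbG array, while Jun is low in CA1 alone. Between CA3 and CbG, the open circles of Fos and Ptgs2 lie nearer to the filled circles of the other region than to those of their own label.

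Of the 10 probe sets tested, 5 passed in the difference between the contrasts as labelled (2.07% of all tested), 9 with the labels exchanged (24.1%) and 8 over the 10 arrays (14.9%). In the direction of higher levels in CA1 and CTX, 4 of the 10 passed as labelled (Junb, Nr4a1, Nr4a3 1369217_at and Arc), against 0.995% of all probe sets tested. In the exchanged arrangement 7 passed in this direction (Egr1, Fos and the other probe set of Nr4a3 in addition), against 10.8%. In the other direction 1369788_s_at of Jun passed as labelled (1 of 10, against 1.07%), and both tested probe sets of Jun passed when exchanged (against 13.3%). Only Ptgs2 did not pass in either arrangement. In the fit without the filter, as labelled, Junb (limma adjusted p = 0.0231), Nr4a1 (0.031) and Jun 1369788_s_at (0.0352) still passed. Arc (0.0654) and Nr4a3 1369217_at (0.0857) did not, where 0.334% of all probe sets passed. With the labels exchanged Fos 1375043_at (0.14) and Jun 1389528_s_at (0.133) did not pass in that fit, where 7.25% passed.

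AP-1 is a dimer of a Fos and a Jun protein, and its subunits did not share a regional order. Junb, a Jun family member that often acts as a weaker activator than Jun, had signals of 607.8, 519.6 and 396.5 in CA1 replicates 1 to 3 and of 692.6, 437.7 and 392.8 in CTX. In the arrays labelled CA3 it gave 215.5, 143.9 and 164.7, and in those labelled CbG 159.8, 127.2 and 131.0. The lowest CA1 or CTX array thus lay well above the highest array of the other regions, and the arrays of doubtful label gave much the same signal as their neighbors of either region. On average Junb was 3.00-fold higher in CA1 and CTX than in CA3 and CbG (log2 difference 1.59 ± 0.14 SE, limma adjusted p = 0.00294 as labelled; ± 0.15, adjusted p = 7.02e-06 exchanged). The difference between CA1 and CTX did not pass (log2 0.34 ± 0.20, limma adjusted p = 0.304 as labelled), nor did that between CA3 and CbG (0.48 ± 0.20, adjusted p = 0.799). In the fit without the filter the mean difference of Junb passed as labelled (limma adjusted p = 0.0231) and exchanged (adjusted p = 0.00196). As labelled CbG minus CTX passed there (adjusted p = 0.0494), and CA1 minus CA3 (adjusted p = 0.0856) and CA3 minus CTX (adjusted p = 0.0955) did not.

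Jun, the main partner of Fos, was low in CA1 alone. Its probe set 1369788_s_at had signals of 436.5, 347.0 and 392.3 in CA1, of 2237.9, 1745.9 and 2290.1 in CA3, of 2285.9, 2132.9 and 1602.0 in CbG and of 2740.0, 1739.9 and 1579.2 in CTX, as labelled. The CA1 arrays did not overlap with any other array, and the 3 other regions overlapped with each other. CA1 was lower than CA3 by a log2 difference of -2.43 ± 0.23 (SE, limma adjusted p = 0.0124), lower than CbG by -2.20 ± 0.23 (adjusted p = 0.0133) and lower than CTX by -2.01 ± 0.23 (adjusted p = 0.00761). Exchanged, these were -2.25, -2.39 and -2.01, all past the threshold, and no pair among CA3, CbG and CTX passed in either arrangement. The less bright probe set 1389528_s_at was lowest in CA1 as well, with CA1 minus CA3 at -2.43 ± 0.46 (limma adjusted p = 0.0447) as labelled and -2.21 ± 0.39 (adjusted p = 0.00193) exchanged. Its CA1 minus CbG did not pass as labelled (-2.11 ± 0.46, limma adjusted p = 0.064). Its CA1 signals spread from 32.5 to 248.2. The third probe set, 1374404_at, had 24.8 to 73.9 in CA1 and 68.1 to 229.4 elsewhere, below the filter.

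Fos, the subunit most often read as a sign of recent activity, depended on the 2 labels more than Jun or Junb. Its bright probe set 1375043_at had signals of 1942.4, 2149.3 and 784.8 in CA1 and 4548.7, 3573.2 and 1621.9 in CTX. The arrays labelled CA3 gave 673.9, 304.9 and 2362.7, and those labelled CbG 3884.7, 4251.8 and 416.6. Replicate 3 of CA3 and of CbG each lay on the far side of the other 2 arrays, so that as labelled CbG ran from 416.6 to 4251.8 and no pair of regions passed. Once exchanged, CA3 had a mean of 465 ± 189 (SD, n = 3) and CbG of 3499.7 ± 1001.7, against 1626 ± 735 in CA1 and 3248 ± 1490.3 in CTX. CA3 was then lower than CA1 (CA1 minus CA3 1.74 ± 0.28, limma adjusted p = 0.00114), CTX (CA3 minus CTX -2.43 ± 0.28, adjusted p = 5.8e-05) and CbG (CA3 minus CbG -2.80 ± 0.28, adjusted p = 3.61e-06). CbG was higher than CA1 (CA1 minus CbG -1.06 ± 0.28, adjusted p = 0.00812), and CbG minus CTX did not pass (0.37 ± 0.28, adjusted p = 0.331). The other probe set of Fos, 1371283_at, was near the bottom of every array, with 8.7 to 83.1 and between the 8.6th and 31.5th percentile. All its CTX arrays (28.6 to 83.1) lay above all CA3 and CbG arrays (8.7 to 20.3). In a fit without the filter CA3 minus CTX was -1.97 ± 0.50 (limma adjusted p = 0.17) as labelled and -1.89 ± 0.50 (adjusted p = 0.0479) exchanged, where 0.246% and 11.8% of all probe sets passed.

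Egr1 and Egr2 are zinc finger factors with related DNA binding domains and share the CArG box at base -83 shown above. Egr1 had signals of 5758.7, 5522.1 and 4493.4 in CA1 and of 5309.6, 7000.1 and 4814.2 in CTX. CA1 minus CTX did not pass (log2 0.21 ± 0.64, limma adjusted p = 0.856 as labelled), with an error that draws on all 4 regions. In the arrays labelled CA3 it gave 1877.3, 2388.2 and 1074.0, and in those labelled CbG 1764.8, 353.9 and 2361.6. The array CbG replicate 2 was the lowest of the 12, and its signal lay far below that of CbG replicate 1. Its β-actin controls had the highest 3' over 5' log2 ratio of the 12, 6.52 against 3.88 in CbG replicate 1. A higher ratio stands for less intact RNA. The GAPDH ratio was 2.31 against 1.83, and not the highest of the 12. The part of RNA integrity in this signal was not tested. Egr1 was 3.66-fold higher in CA1 and CTX than in CA3 and CbG (log2 1.87 ± 0.45, limma adjusted p = 0.0777 as labelled; ± 0.28, adjusted p = 0.000291 exchanged). In the exchanged arrangement CA3 was higher than CbG (1.47 ± 0.40, adjusted p = 0.00773), whereas CA1 and CA3 did not pass (1.24 ± 0.40, adjusted p = 0.0554).

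Egr2 had the widest range of the members. Probe set 1387306_a_at gave 1413.1, 929.6 and 307.7 in CA1 and 3152.0, 1572.3 and 742.6 in CTX, against 97.5, 98.4 and 25.0 in CA3 and 93.3, 38.9 and 37.0 in CbG. The groups were far apart although the replicates of each region spread several fold, with replicate 3 the lowest in all 4 regions as labelled. In the fit without the filter, which tested 15866 probe sets, CA1 and CTX were 17.7-fold higher than CA3 and CbG (log2 4.15 ± 0.27, limma adjusted p = 0.00187 as labelled; ± 0.19, adjusted p = 0.000112 exchanged), where 0.334% and 7.25% of all probe sets passed. The signals of CA3 and CbG lay below the array's 50th percentile, so that the size of this fold rests on dim signals. Probe set 1398266_a_at of Egr2 was between 7.8 and 76.0 in all arrays, with overlapping regions. The 2 probe sets thus disagree, and the second was dim throughout.

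Nr4a1 and Nr4a3 encode orphan nuclear receptors that are induced by activity without a known ligand. Nr4a1 had signals of 1000.9, 1078.4 and 665.3 in CA1, 1316.3, 937.9 and 658.7 in CTX, 386.1, 320.6 and 184.2 in CA3 and 528.0, 520.8 and 345.9 in CbG. It was 2.38-fold higher in CA1 and CTX (log2 1.25 ± 0.15, limma adjusted p = 0.0051 as labelled; ± 0.17, adjusted p = 0.000123 exchanged). CA1 minus CTX did not pass (0.25 ± 0.21, adjusted p = 0.455), nor did CA3 minus CbG in either arrangement (-0.52 ± 0.21, adjusted p = 0.799 as labelled, and 0.06 ± 0.24, adjusted p = 0.846 exchanged).

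With the labels exchanged, both probe sets of Nr4a3 were lower in every CbG array than in any CA1 or CTX array, and they disagreed for CA3. Probe set 1369217_at had signals of 525.1, 625.5 and 343.8 in CA1, 391.4, 282.6 and 290.7 in CTX, 181.9, 171.3 and 92.9 in CA3 and 156.8, 168.1 and 200.1 in CbG. Here every CA3 and CbG array lay below every CA1 and CTX array, and CA1 and CTX were 2.33-fold higher (log2 1.22 ± 0.22, limma adjusted p = 0.027 as labelled; ± 0.15, adjusted p = 4.98e-05 exchanged). CA3 was higher than CbG when exchanged (0.59 ± 0.21, adjusted p = 0.0316) and not as labelled. CA1 was higher than CTX when exchanged as well (0.92 ± 0.21, limma adjusted p = 0.00474), and not as labelled. On the other probe set, 1369067_at, CA1 minus CTX did not pass when exchanged (0.60 ± 0.30, adjusted p = 0.132). Probe set 1369067_at gave 2215.9, 1363.4 and 1044.2 in CA1, 1711.5, 1133.8 and 892.1 in CTX, 1952.8, 1278.7 and 90.6 in CA3 and 547.8, 191.5 and 1862.3 in CbG. On this probe set CA3 replicates 1 and 2 reached the level of CA1, and the array labelled CbG replicate 3 did so as well. After the exchange, CA3 was higher than CbG by 3.12 ± 0.30 (SE, limma adjusted p = 2.47e-06) and CA1 minus CA3 was -0.20 ± 0.30 (adjusted p = 0.731), where 1369217_at gave 1.38 ± 0.21 (adjusted p = 0.000706) for the latter. Which transcripts of Nr4a3 each probe set reads is not given in the sources used here.

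Arc, whose protein acts at active synapses in the removal of AMPA receptors, separated the regions most among the probe sets tested of the members. Its signals were 2141.7, 3076.3 and 1734.3 in CA1, 3954.5, 3022.4 and 1946.5 in CTX, 730.4, 685.8 and 177.8 in CA3 and 237.6, 149.3 and 565.3 in CbG, as labelled. CA1 minus CTX did not pass (log2 difference -0.03 ± 0.65 as labelled and ± 0.23 exchanged, limma adjusted p = 0.98 and 0.934). Against CA3 and CbG, CA1 and CTX were 6.81-fold higher (log2 2.77 ± 0.46, adjusted p = 0.022 as labelled, and ± 0.17, adjusted p = 8.97e-08 exchanged). Exchanging the labels brought the CA3 arrays to 565.3 to 730.4 and the CbG arrays to 149.3 to 237.6, and CA3 was then higher than CbG (1.97 ± 0.23, limma adjusted p = 1.49e-05), where the labelled arrangement gave 0.88 ± 0.65 (adjusted p = 0.799).

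Ptgs2, the inducible cyclooxygenase, did not follow the other members. As labelled its signals were 330.8, 434.5 and 371.3 in CA1, 329.1, 144.2 and 279.6 in CTX, 824.9, 902.5 and 104.2 in CA3 and 195.3, 80.5 and 616.0 in CbG, and no pair of regions passed. Exchanged, CA3 held the highest signals, 616.0 to 902.5, above every other array, and CbG the lowest, 80.5 to 195.3. CA3 was then higher than CA1 (CA1 minus CA3 -1.04 ± 0.30, limma adjusted p = 0.0342), CTX (2.03 ± 0.30, adjusted p = 0.000302) and CbG (2.85 ± 0.30, adjusted p = 4.82e-06). CTX was higher than CbG (CbG minus CTX -0.82 ± 0.30, adjusted p = 0.0453). The difference between the contrasts stayed at -0.22 (± 1.33 as labelled, ± 0.42 exchanged).

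Atf3, a stress-inducible repressor of the CREB family, was dim throughout. Its signals were 14.8, 32.6 and 9.6 in CA1, 41.5, 31.8 and 24.3 in CA3, 46.7, 34.0 and 43.7 in CbG and 263.1, 127.7 and 31.0 in CTX. Only CTX replicate 1 was above the array's 50th percentile, and the CTX replicates spanned from within the range of the other regions to well above it. In the fit without the filter Atf3 did not pass in any contrast as labelled. CA1 minus CTX, whose arrays the exchange does not touch, was -2.29 ± 0.61 (limma adjusted p = 0.13) as labelled and -2.29 ± 0.59 (adjusted p = 0.0458) with the labels exchanged, where 0.63% and 11.3% of all probe sets passed.

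The comparison for which the study was set up, VUL against RES, put CA1 and CTX on opposite sides. For Junb, Egr1, Nr4a1 and Arc, CA1 minus CTX did not pass in either arrangement. For both tested probe sets of Jun it passed in both. None of the 10 member probe sets passed as labelled, in which 0.0% of all probe sets tested passed (740 at an unadjusted p under 0.05). Jun came nearest, with -1.12 ± 0.16 (SE, limma adjusted p = 0.0688). Junb was at -0.07 ± 0.14, Egr1 at -0.26 ± 0.45 and Arc at -0.45 ± 0.46. After the exchange 6 of the 10 passed, against 18.4% of all tested, and over the 10 arrays also 6, against 17.8%. Of the 6, Fos was higher in VUL neurons (1.06 ± 0.20, limma adjusted p = 0.00162). The other 5 were lower, namely both probe sets of Jun (-0.94 ± 0.15 and -1.20 ± 0.28), Nr4a3 1369067_at (-1.26 ± 0.21), Arc (-0.999 ± 0.17) and Ptgs2 (-0.93 ± 0.21). None of these 6 differences held in both VUL regions against both RES regions. Jun was low in CA1 and not in CbG, Arc was low in CbG and not in CA1, and Fos was lower in CA3 than in the 3 other regions. Ptgs2 was higher in CA1 than in CTX (0.98 ± 0.30, limma adjusted p = 0.0209). The paired test of the study's methods, run over the 6 VUL and RES pairs of arrays with the same replicate number, gave 0 members as labelled, unadjusted or adjusted. Of all 7535 probe sets tested it gave 198 unadjusted and 0 adjusted in that arrangement. After the exchange it gave Fos and Ptgs2 unadjusted and, after Benjamini-Hochberg, Ptgs2 (lower in VUL in 6 of 6 pairs), among 908 and 193 probe sets in all.

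Within the hippocampus, CA1 minus CA3 passed for 5 of 10 member probe sets as labelled (1.29% of all tested), 8 with the labels exchanged (13.4%) and 8 over the 10 arrays (10.5%). As labelled Junb, Nr4a1 and Nr4a3 1369217_at were higher in CA1 and both probe sets of Jun were lower. CbG minus CTX passed for Junb as labelled (-1.66 ± 0.20, limma adjusted p = 0.0136), 1 of 10 against 0.624% of all tested. In the exchanged arrangement 7 of 10 passed (33.9%), all lower in CbG, namely Junb, Egr1, Nr4a1, both probe sets of Nr4a3, Arc and Ptgs2. This direction held 13.0% of all probe sets tested, whereas 20.8% were higher in CbG. Over the 10 arrays 6 passed, against 26.1%. Among the 4 other pairs of regions, 4 member probe sets passed as labelled for CA1 minus CbG (1.23% of all tested), 2 for CA1 minus CTX (both of Jun, 6.37%), 2 for CA3 minus CTX (1.92%) and 0 for CA3 minus CbG (0.0% in limma, with 331 of all probe sets at an unadjusted p under 0.05). These counts became 10 (40.6%), 4 (33.7%), 6 (36.0%) and 6 (45.5%) after the exchange. In the F test over the 4 regions 6 of the 10 probe sets passed as labelled (3.24% of all tested), 10 with the labels exchanged (67.6%) and 10 over the 10 arrays (60.7%). Most probe sets tested thus differed between some regions in the last 2 arrangements, and the members' counts, which are of probe sets, are read against those shares. Leaving out 1 array at a time, the count for CA1 minus CA3 as labelled fell to 0 without any 1 of the CA1 arrays, CA3 replicate 1 or 2, or CTX replicate 2, was 1 without CTX replicate 1 or 3, 3 or 4 without CA3 replicate 3 or CbG replicate 1 or 2 and 6 without CbG replicate 3, and stayed between 6 and 9 with the labels exchanged. For the difference between the contrasts it ran from 2 (without any 1 array of CA1 or CTX) to 6 as labelled and from 6 to 9 exchanged. The share of all probe sets that passed with an array left out is not given here. These counts are therefore not read as a result about the members.

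**Figure D2:**
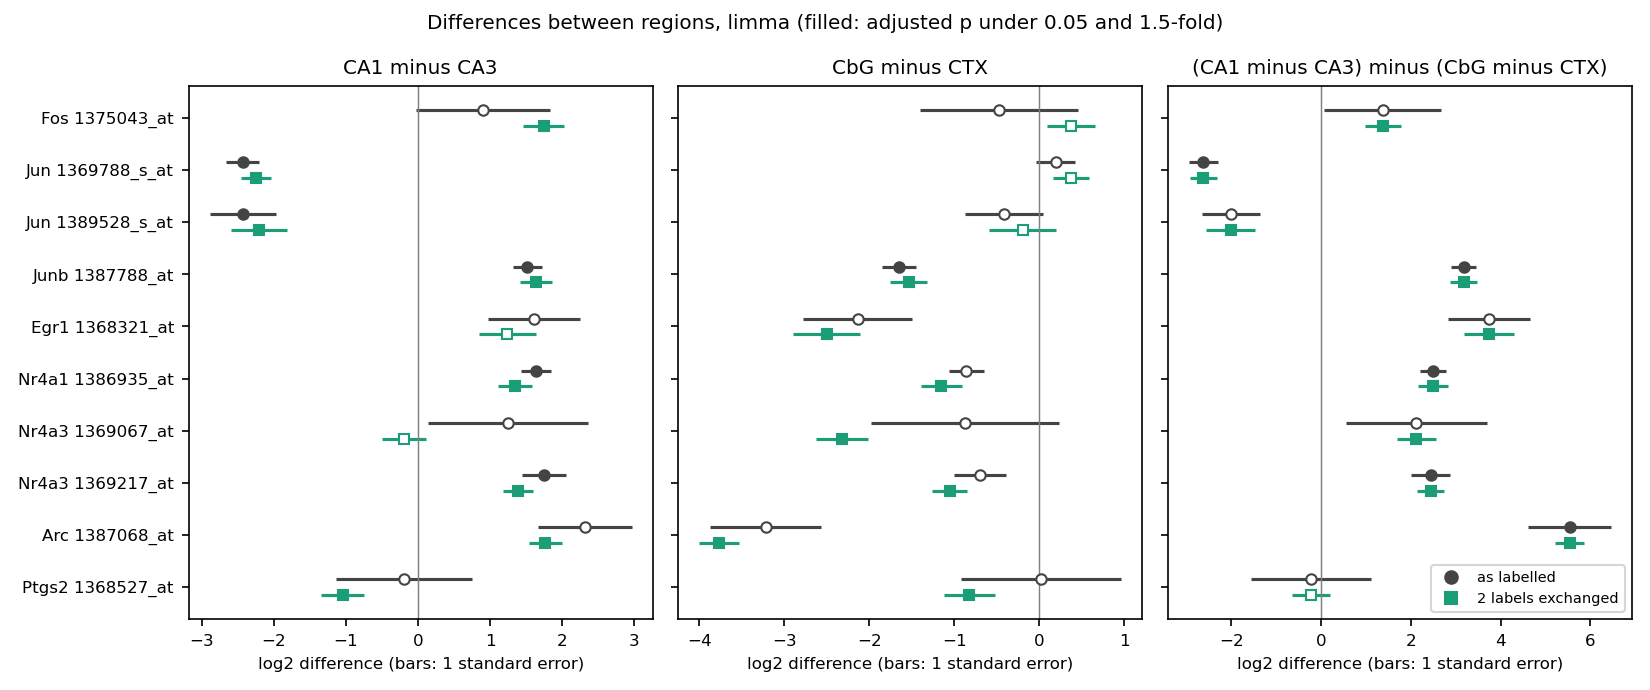
Log2 difference with its standard error for the 10 member probe sets tested, for the hippocampal contrast (left), for CbG minus CTX (middle) and for their difference (right); circles are the arrays as labelled, squares have both doubtful labels exchanged, and filled marks passed. In the right panel circle and square sit at the same value for each probe set and only the bars differ, as for Arc with 5.54 ± 0.92 and ± 0.33.

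Among markers of other cells in the captured tissue, those of inhibitory neurons followed this pattern in part. Of the 5 markers of inhibitory neurons tested, 3 (Npy, Slc32a1 and Gad1) were higher in CA1 and CTX than in CA3 and CbG with the labels exchanged, and 0 as labelled. Of all probe sets tested 10.8% and 0.995% were. The list of 7 inhibitory neuron genes summed to 7839 to 9220 in CA1, 12143 to 16583 in CTX, 3057 to 5161 in the arrays labelled CA3 and 5412 to 10304 in those labelled CbG. CA1 and CbG thus overlapped. The 6 oligodendrocyte markers on the array summed to 4273 to 6776 in CA1 and 28971 to 44249 in CTX, with CA3 and CbG between them at 10065 to 20752, so that they set CA1 and CTX farthest apart. No marker of either list had a signal of 0. Of the tested markers of astrocytes (5), oligodendrocytes (5), microglia (1) and endothelium (2), 0 passed in the difference between the contrasts, in either arrangement. The part of any of these cell types in the members' signals was not tested.

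Between replicates of a region, the members moved in part together, with 1 probe set taken for each gene. In CTX, replicate 1 had the highest signal of the 3 for 9 of the 10 genes and replicate 3 the lowest for 9, where of all 7535 probe sets tested 30.5% were highest in replicate 1 and 41.1% lowest in replicate 3. In CA1, replicate 3 was the lowest for 8 of the 10 genes, against 20.6% of all tested, and the highest for 0, against 46.0%. Fos, Junb, Egr1, Egr2, Nr4a1, Nr4a3, Arc and Atf3 were lowest in replicate 3 of both regions, 8 of 10 genes, against 7.64% of all probe sets tested. Jun and Ptgs2 were the exceptions on the probe sets taken. Of all 15 member probe sets, 11 were lowest in replicate 3 of both regions. The dim Fos 1371283_at was instead highest in replicate 3 of both, with 53.5 in CA1 and 83.1 in CTX. Neither region holds an array of doubtful label. The CTX arrays spread most for Atf3 (263.1 down to 31.0) and Egr2 (3152.0 down to 742.6). In CA1 replicate 3 Fos was at 784.8 against 1942.4 and 2149.3, and Egr2 at 307.7 against 1413.1 and 929.6.

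**Figure D3:**
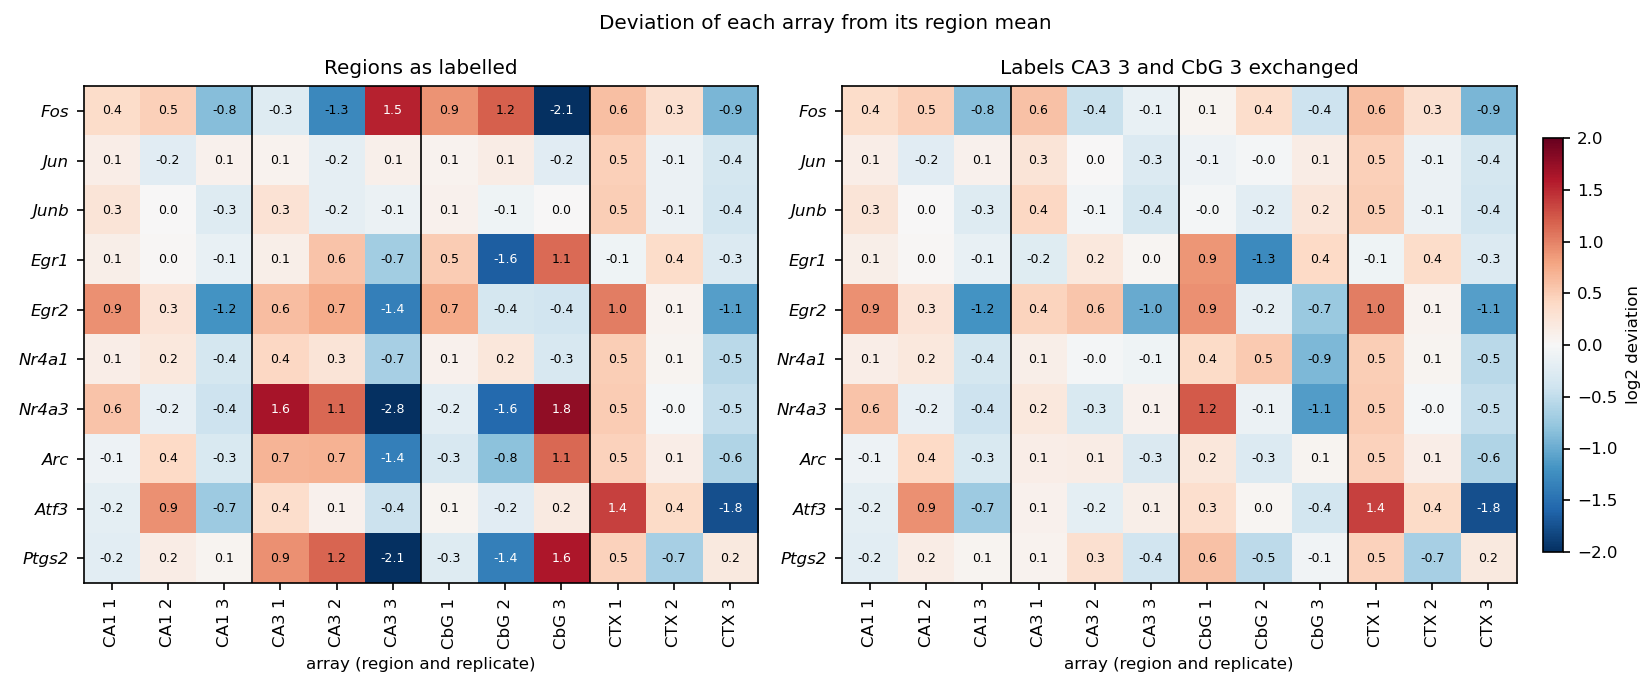
Deviation of each array from the mean of its region (log2, color scale with values) for 1 probe set of each of the 10 genes, as labelled (left) and with both doubtful labels exchanged (right, where the column CA3 3 holds the array labelled CbG replicate 3 and the reverse). The columns CA1 3 and CTX 3 are blue for most genes, and the strong colors of the CA3 and CbG columns on the left fade on the right.

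The median deviation over the 10 genes was -0.33 in CA1 replicate 3 and -0.51 in CTX replicate 3 on the log2 scale, where the median over all probe sets tested was 0.07 and -0.04. The 3' over 5' log2 ratio of the array's β-actin controls is a reading of RNA integrity, a lower ratio standing for more intact RNA. It was the lowest of the region in the same arrays. In CA1 it was 4.62 against 4.76 and 5.35, and in CTX 4.13 against 4.55 and 5.13. The same ratio of the GAPDH controls was in the middle in these arrays, 1.74 between 1.55 and 2.21 in CA1 and 2.47 between 2.06 and 2.76 in CTX. As labelled, replicate 3 had a median of -0.68 in CA3 and 0.09 in CbG, and exchanged of -0.21 and -0.22. Whether these arrays came from 1 animal is not given in the sources used here, and the part of RNA integrity in these lower signals was not tested.

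Agreement between the members was measured by the correlation of their deviations from the region mean over the 12 arrays, for 45 pairs of genes, with an exact permutation of arrays within regions (two-sided, 1296 arrangements, smallest p 0.00077). As labelled, 37 of 45 pairs had r above 0, with a median of 0.395 and a range from -0.83 to 0.935. Exchanged, 41 pairs were above 0, with a median of 0.410 and a range from -0.23 to 0.852. Over the 10 arrays the median was 0.516, with 40 above 0. Among all pairs of the 7535 probe sets the median r was 0.041 as labelled, 0.094 exchanged and 0.059 over the 10 arrays, as a description across genes that share the arrays. None of the 45 pairs passed after Benjamini-Hochberg adjustment as labelled or exchanged, by r or by rho, while 11 and 8 had an unadjusted p for r under 0.05. The 10 arrays allow 144 arrangements and no p below 0.00694, too coarse for a single pair among 45 to pass, and 7 pairs had an unadjusted p under 0.05 there.

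Which pairs had the highest r differed between the 2 arrangements. As labelled, Nr4a3 and Arc had the highest r, 0.935 (exact permutation p = 0.00926, adjusted p = 0.174; rho = 0.937, p = 0.00926, adjusted p = 0.174; r = 0.863 without the 2 arrays farthest from the median of Nr4a3). Fos ran against Ptgs2 with r = -0.83 (exact permutation p = 0.0409, adjusted p = 0.184; rho = -0.78, p = 0.0617, adjusted p = 0.246; r = -0.70 without the 2 farthest arrays). Exchanged, these became 0.351 and -0.14, and the pair with the lowest p was Fos with Nr4a1, r = 0.768 (exact permutation p = 0.00231, adjusted p = 0.0868; rho = 0.762, p = 0.00231, adjusted p = 0.104; r = 0.693 without the 2 farthest arrays). Those 2 genes lay on the same side of the region mean in 12 of 12 arrays. Jun with Junb reached 0.847 (rho = 0.783, r = 0.725 without the 2 farthest arrays) and Arc with Atf3 0.852 (rho = 0.790, r = 0.693), with an exact permutation p adjusted to 0.169 for each r. As labelled Arc with Atf3 had the lowest p, with r = 0.569 (exact permutation p = 0.00154, adjusted p = 0.0694, rho = 0.699, r = 0.674 without the 2 farthest arrays). Over the 10 arrays the r of this pair was 0.950. Signals of Atf3 were dim. Fos had r below 0 with Egr1, Nr4a3, Arc and Ptgs2 as labelled, and with Egr1 and Ptgs2 alone when exchanged.

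**Figure D4:**
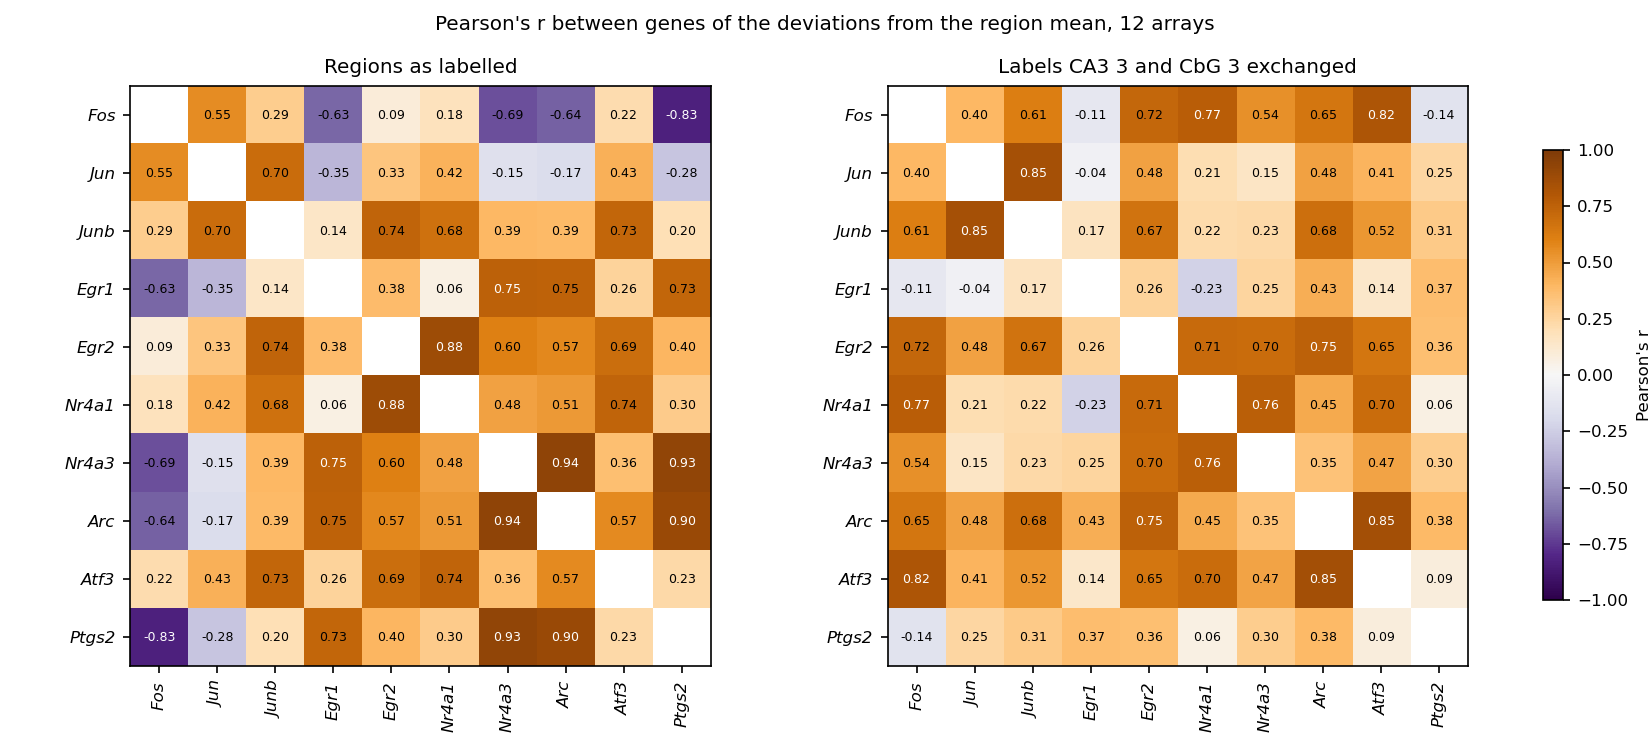
Pearson's r between the deviations of 10 genes from their region mean over 12 arrays, as labelled (left) and with the 2 labels exchanged (right); color runs from -1 (purple) to 1 (orange). The row of Fos is mixed on the left, down to -0.83 with Ptgs2, and mostly above 0 on the right, up to 0.82 with Atf3.

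Other genes that neuronal activity induces were taken as a list of 50, of which 44 were on the array under 1 symbol and 21 passed the filter. Of these 21, as labelled, 0 were higher in CA1 and CTX than in CA3 and CbG and 1 was lower, and with the labels exchanged 12 were higher and 2 lower. The median log2 value of the list was 1.43, in the same unit as the difference between the contrasts, against -0.18 for all probe sets tested, of which 812 were higher and 1001 lower with the labels exchanged. Plk2, a kinase of synaptic downscaling, had the largest value of the list, 5.42 (± 1.92 as labelled, limma adjusted p = 0.199; ± 0.35 exchanged). It was followed by Dusp6, a phosphatase that switches off ERK, with 4.16 (± 1.69, adjusted p = 0.255; ± 0.49 exchanged). Vgf, a precursor of secreted peptides, had 3.04 (± 1.17, adjusted p = 0.234; ± 0.41, adjusted p = 0.000125 exchanged), and Egr4, of the same family as Egr1, 2.63 (± 0.90, adjusted p = 0.185; ± 0.71, adjusted p = 0.0162 exchanged).

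**Figure D5:**
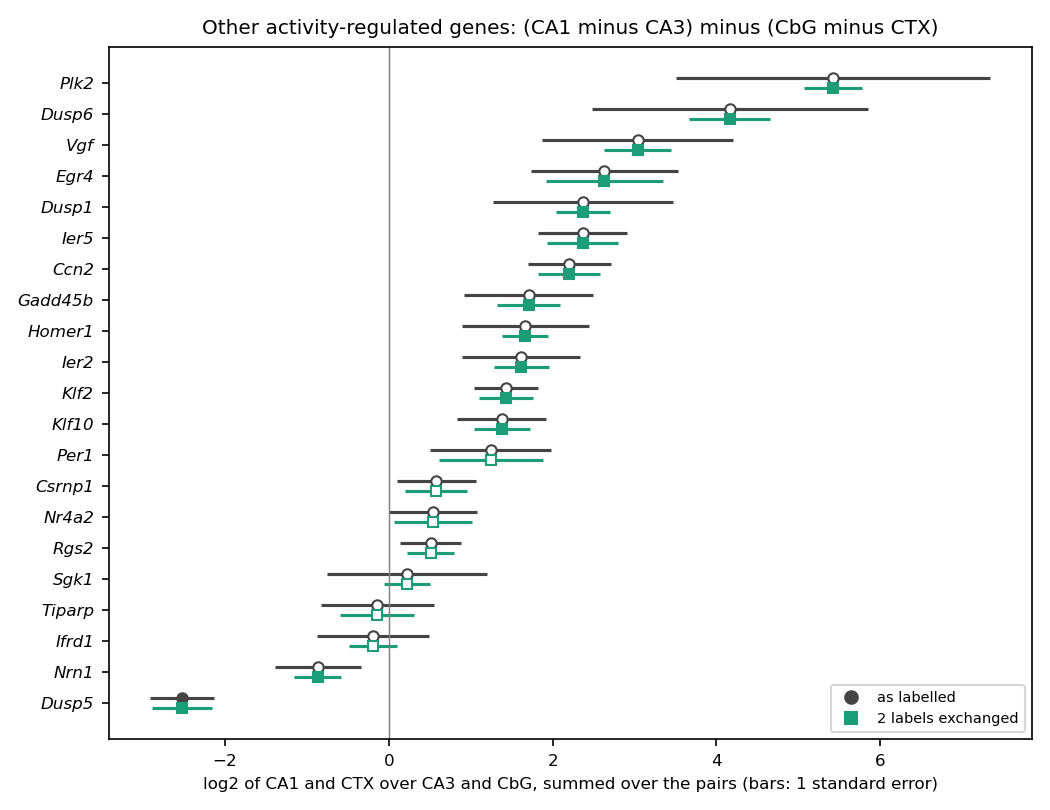
Difference between the contrasts CA1 minus CA3 and CbG minus CTX on the log2 scale, with its standard error, for the 21 other activity-regulated genes tested; circles are as labelled, squares have the 2 labels exchanged, and filled marks passed. From Plk2 down to Klf10, 12 genes passed above 0 with the labels exchanged, and Dusp5 passed below 0 in both arrangements.

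Ier5, Ccn2, Dusp1, Gadd45b, Homer1, Ier2, Klf2 and Klf10 made up the rest of the 12, with values between 1.38 and 2.37. Dusp5, another phosphatase of ERK, ran the other way in both arrangements (-2.52 ± 0.39, limma adjusted p = 0.0171 as labelled; ± 0.36, adjusted p = 0.000204 exchanged), with CbG above CTX (1.79 ± 0.27, adjusted p = 0.0254 as labelled). Nrn1, a secreted neuritin, was lower with the labels exchanged alone (-0.86 ± 0.29, adjusted p = 0.043). Nr4a2, the third receptor of the Nr4a family, did not follow Nr4a1, with 0.54 ± 0.53 (adjusted p = 0.64) as labelled. It was higher in CA1 than in CA3 with the labels exchanged (1.26 ± 0.33, adjusted p = 0.0229), and CbG minus CTX did not pass (0.72 ± 0.33, adjusted p = 0.105). In the contrast CbG minus CTX with the labels exchanged, 13 of the 21 were lower and 1 higher, where all probe sets gave 982 and 1569.

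The upstream side of the pathway, a list of 40 channels, kinases and factors with 20 tested, was split. With the labels exchanged 4 were higher in CA1 and CTX (Mef2c, Camk2a, Camkk1 and Srf) and 4 lower (Cacna1c, Camkk2, Mapk14 and Elk1), with a median of -0.11 against -0.18 for all tested. As labelled Mef2c was higher (6.81 ± 1.26, limma adjusted p = 0.032) and Camkk2 lower (-1.48 ± 0.30, adjusted p = 0.045). Srf, the factor that binds the CArG box, had 0.95 ± 0.32 (adjusted p = 0.181) as labelled and ± 0.29 (adjusted p = 0.0309) exchanged, while Elk1, its partner at these sites, had -0.99 ± 0.39 (adjusted p = 0.241) and ± 0.32 (adjusted p = 0.0381). Creb1 had -0.25 ± 0.70 (adjusted p = 0.888) as labelled. Of the partners and repressors of the members, 6 were tested, and with the labels exchanged Egr4 was higher and Atf4, a relative of Atf3, lower (-0.84 ± 0.27, adjusted p = 0.0361). Of 5 stress-inducible genes tested, Hsph1, a heat shock protein, was higher (1.00 ± 0.26, adjusted p = 0.0142 exchanged), and 0 passed as labelled in this contrast.

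The probe sets whose log2 signal ran most like that of each member over the 12 arrays were taken by Pearson's r, as a description among 7534 others. For Fos these were Ptbp3 (0.928), Dusp1 (0.908) and Nap1l5 (0.900), and for Jun Cystm1 (0.938), Tpm4 (0.935) and Kcnd3 (0.931). Junb was most like Gucy1b1 (0.944), Rin2 (0.916) and Igsf11 (0.909). Egr1 went with Rasd2 (0.943), Asap1 (0.926) and Arc (0.923), and Nr4a1 with Fstl1 (0.901), Nr4a3 1369217_at (0.877) and 2810025M15Rikl (0.873). Nr4a3 1369067_at was nearest to Nav1 (0.968), Hebp1 (0.951) and Cdh11 (0.949). Arc ran with Rasl10a (0.968), Ehbp1l1 (0.964) and Ctnna2 (0.963), and Ptgs2 with Akap13 (0.982), Srebf2 (0.967) and Lrrc8d (0.956). Among these 24 nearest probe sets, 2 belong to another member (Arc and Nr4a3) and 1 to the list of other activity-regulated genes (Dusp1).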

How the data were processed

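The 12 arrays were hybridized with RNA amplified in 2 cycles. The authors deposited MAS5 signal intensities on a linear scale, per the submitters' processing notes, and their methods state that arrays were scaled to 1 target intensity. The methods name Affymetrix GeneChip Operating Software for the signals. Detection calls were not used. The mean signal between the lowest and highest 2% was 500.1 in each array and medians lay between 145.5 and 199.3. The number of arrays limits the precision.

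Probe sets were named from GEO's platform annotation, which gave 12783 probe sets 1 symbol, 312 several and 2771 none. After leaving out 57 controls, the 7535 probe sets that exceeded the 50th percentile of an array's signals in 8 or more of the 12 arrays were tested (7463 by the same share of 10 arrays). From these intensities, log2 values centred on the array median were fitted in limma 3.58.1 (R 4.3.3) with a mean per region and a block per replicate number, and p-values were adjusted by Benjamini-Hochberg over all probe sets tested. Errors beside log2 differences are standard errors, from 1 estimate of the spread that all 4 regions share. The comparison of CA1 and CTX with CA3 and CbG is the difference between CA1 minus CA3 and CbG minus CTX, divided by 2 to give a mean. Between genes, deviations from region means were correlated with scipy 1.17.1 and numpy 2.4.6 under Python 3.11.15, taking 1 probe set a gene, that with the highest mean log2 signal, and figures were drawn in matplotlib 3.10.9.

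The block is the replicate number, as the study's methods use paired tests, although no source used here ties a number to 1 animal. The members, lists, motifs and arrangements were chosen with earlier results of these data known. Named are all members, the 4 genes of each list with the largest CA1 minus CA3 and CbG minus CTX differences, the 3 probe sets most like each member, and, after their values were seen, list genes that passed. Other probe sets of a list gene were not used. Scripts were tested on simulated data. Alternatives covered scaling, low signals, filters, the block, the prior, the test and each replicate number or array left out. Promoters came from RefSeq (GRCr8). The values give no length, so that levels of different genes were not compared.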

Additional observations from a re-analysis of the deposited data

Results flagged for a closer look

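The signal of Nr4a3 1369067_at in the array labelled CA3 replicate 3, 90.6, lay far below those of the 5 other RES arrays (1952.8 and 1278.7 in CA3, 1711.5, 1133.8 and 892.1 in CTX). It was singled out by the gap to its nearest neighbor on the log2 scale, 0.668 of the whole range, among 30 groups of 6 arrays examined, where chance flags about 5% of groups. The arrays labelled CbG replicates 1 and 2 had 547.8 and 191.5.

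For 5 probe sets the contrast CA1 minus CA3 differed from CbG minus CTX in the limma fit as labelled. The difference on the log2 scale was 3.17 for Junb, 2.5 for Nr4a1, 2.44 for Nr4a3 1369217_at and 5.54 for Arc, with CA1 above CA3 and CbG below CTX in each. For Jun 1369788_s_at it was -2.62, with CA1 far below CA3 (-2.43) and CbG close to CTX (0.19). The 5 differences between the contrasts are the same in size with the 2 labels exchanged, while each contrast alone is not (for Jun -2.25 and 0.37).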

How the results depend on the processing

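The number of member probe sets that passed is given in the order VUL against RES, CA1 minus CA3, CbG minus CTX, the difference between these contrasts, the F test and the 4 other pairs of regions together, which was 0, 5, 1, 5, 6 and 8 as labelled. It was 6, 8, 7, 9, 10 and 26 with the labels exchanged and 6, 8, 6, 8, 10 and 26 over the 10 arrays. Without the filter, with all 15 member probe sets tested, it was 0, 2, 2, 4, 3 and 3, where 0.334% of all probe sets passed in the difference between the contrasts. With signals above the 50th percentile in all 12 arrays it was 1, 2, 0, 2, 2 and 4, and in at least 3 arrays 0, 5, 2, 6, 4 and 8. The filter also changes how many member probe sets are tested. Counts without a share over all probe sets beside them are not read as a result about the members. Quantile normalization gave 1, 5, 2, 5, 5 and 6, and no centring 1 for VUL minus RES. Without the replicate block it was 1, 5, 2, 6, 6 and 9, a change over 1.5 times for VUL against RES and for CbG minus CTX alone. The numbers were not seen to pair the arrays, since deviations of same-numbered arrays correlated by -0.06 on average as labelled and 0.086 exchanged, against 0.02 and -0.04 for other numbers. With the labels exchanged, these became 5, 7, 7, 8, 12 and 27 without the filter, again of 15 member probe sets, where 7.25% of all passed in the difference between the contrasts. They were 6, 9, 7, 8, 10 and 26 without the replicate block, and 6, 8, 7, 9, 10 and 25 with quantile normalization and with no centring, the last 2 added after seeing the data. Leaving out replicate 1 or replicate 2 of all regions gave 0 throughout as labelled, and leaving out replicate 3, which holds both doubtful arrays, 6, 6, 5, 7, 9 and 20. Over each array left out the counts ran from 0 to 1, 0 to 6, 0 to 4, 2 to 6, 0 to 8 and 0 to 14. With the labels exchanged the counts ran from 5 to 6, 6 to 9, 5 to 7, 7 to 7, 8 to 10 and 17 to 26 over each replicate number left out, and from 6 to 7, 6 to 9, 5 to 7, 6 to 9, 9 to 10 and 21 to 27 over each array, the last mostly 22, 23 or 24. Where an arm was left with 1 array, it was assumed to vary like the other regions. Of the 45 correlations, 1 passed after adjustment with 50 added before log2 and 1 with quantile normalization, against 0 otherwise, where settings with arrays left out allow too few arrangements for a single pair to pass. Adding 50, a floor of 50 and another variance prior moved no count of probe sets over 1.5 times.

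Directions turned for values that did not pass as labelled. With the labels exchanged (also without filter or block), Fos CbG minus CTX was 0.37, Nr4a3 1369067_at CA1 minus CA3 -0.20 and Ptgs2 CbG minus CTX -0.82, and over the 10 arrays the first was 0.14 and the last -0.72. With quantile normalization CbG minus CTX was -0.033 for Jun 1369788_s_at and -0.046 for Ptgs2, and without centring -0.15 for Ptgs2. Over each replicate number or array left out, Fos ran from -0.078 (without CA3 replicate 2) to 2.31 in CA1 minus CA3 and from -1.16 to 0.54 in CbG minus CTX. Nr4a3 1369067_at ran from -0.30 to 2.11 and from -2.37 to 0.062, and Ptgs2 from -1.55 to 0.69, from -1.09 to 0.81 and, in the difference between the contrasts, from -1.57 to 0.89. The cause was not tested beyond the labels themselves. Signals under the array's 50th percentile, as for Atf3 and for Egr2 in CA3 and CbG, limit those folds.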
